A study of Mus musculus with 6 samples.

Results

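The cells described here are endothelial cells of the adult mouse brain that carried transcripts of veins or of activated endothelium. They were chosen by a gate on 6 genes: Slc38a5, a gene of the venous side of the brain's vessel tree, Vwf, a gene of larger vessels that include veins, and Vcam1, Icam1, Il1r1 and Lcn2, which are raised when endothelium responds to cytokines. A barcode entered the analysis with at least 300 genes and at most 20% of its unique molecular identifiers (UMIs, 1 per captured RNA molecule) from mitochondrial genes. It was endothelial with 5 or more UMIs of Cldn5, Flt1, Pecam1 and Cdh5 together, and more of these than of the mural and astroglial genes Vtn, Rgs5 and Slc1a3. An endothelial cell was venous with 4 or more UMIs of the 6 gate genes, and more of these than of the arterial genes Bmx, Gkn3, Sema3g, Hey1, Vegfc and Mgp. This gave 258 venous cells of 1666 endothelial cells, of 6323 barcodes that passed and 7433 deposited. The mirror gate, with the arterial genes at 4 or more UMIs and above the venous ones, held 130 arterial cells, and 1278 endothelial cells met neither gate. Because measured values of the gate genes chose the cells, those genes are described without a test.

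The study concerned connexin 43, the gap junction protein encoded by Gja1, in signalling between vessels and neural stem and progenitor cells of the subventricular zone (SVZ). Cortex and SVZ of mice 8-12 weeks old were digested with collagenase and dispase and sorted by flow cytometry for CD31+ Glast- endothelial cells and Glast+ CD31- neural stem and progenitor cells, both CD45-, a gate that leaves out leukocytes. Single-cell 3' libraries (10x Genomics, v3.1 chemistry) were made in 2 biological replicates for each of 3 groups. The control mice carried the floxed Gja1 alleles (Cx43flox/flox) and no deletion is named for them, the second group was Cx43GlastiKO, and the third was Cx43ECiKO. By their names, the deletion was directed at Glast-expressing cells in GlastiKO and at endothelial cells in ECiKO. The labels used here do not give the Cre driver, the inducing agent, the sex of the mice or the number of animals behind a library.

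Blood leaves the brain's capillaries through venules and veins. Venous endothelium is specified by the nuclear receptor Nr2f2 and lacks the Notch and ephrin-B2 programme of arteries. Postcapillary venules are the site where leukocytes attach and cross, and their endothelium responds to interleukin 1 and tumour necrosis factor through NF-kB with adhesion molecules, chemokines and prostaglandin synthesis. Capillary endothelium carries most of the transporters of the blood-brain barrier, and its transcripts grade into those of venules without a sharp border.

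The libraries numbered 1 and 2 differed in make-up in every group. In the libraries numbered 1, between 88.1% and 93.3% of the passing barcodes were endothelial, against 0.839% to 5.18% in those numbered 2, and no label tells which sorted fraction went into which library. As a result 240 venous cells came from the libraries numbered 1 and 18 from those numbered 2, and the ECiKO replicate 2 library held 1. Library totals ran from 1735247 to 14859187 UMIs, and the venous cells together held 1193488 UMIs. A venous cell had a median of 4313.5 UMIs, an arterial cell 4683 and an endothelial cell outside the venous gate 3065.5. Of the 15 pairs of libraries, 5 shared 1 barcode sequence each, and none of the shared barcodes was a venous cell. Scrublet called 54 doublets among the passing cells (0.854%), 9 of them venous. P-values below measure the spread between these libraries only.

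The venous share of endothelial cells was 15.5% over all libraries (95% exact interval 13.8 to 17.3%, covering counting error only). In the control libraries 111 of 721 endothelial cells (15.4%) and 7 of 43 (16.3%) were venous. In the GlastiKO libraries it was 81 of 438 (18.5%) and 10 of 62 (16.1%). In the ECiKO libraries it was 48 of 381 (12.6%) and 1 of 21 (4.76%, interval 0.12 to 23.8%). The 5 libraries with more than 1 venous cell thus lay between 12.6% and 18.5%, and the sixth had too few endothelial cells to place its share. The mean was 15.8% ± 0.625 (SD, n = 2) in control and 17.3% ± 1.67 (SD, n = 2) in GlastiKO, so that GlastiKO minus control was 1.47 percentage points (exact two-sided permutation test, p = 0.667). ECiKO averaged 8.68% ± 5.54 (SD, n = 2), and ECiKO minus control was -7.16 percentage points (exact two-sided permutation test, p = 0.333, the smallest p that 2 against 2 libraries allow). A gate on raw UMIs admits deeper cells more easily, so each endothelial cell with at least 2000 UMIs was also thinned to 2000. Shallower endothelial cells were left out, 168 and 17 in control, 114 and 15 in GlastiKO and 130 and 15 in ECiKO. The share then was 118 of 1207 cells (9.78%), with 8.86% and 11.5% in control, 11.4% and 10.6% in GlastiKO and 9.56% in ECiKO replicate 1, and none of 6 cells in ECiKO replicate 2.

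**Figure D1:**
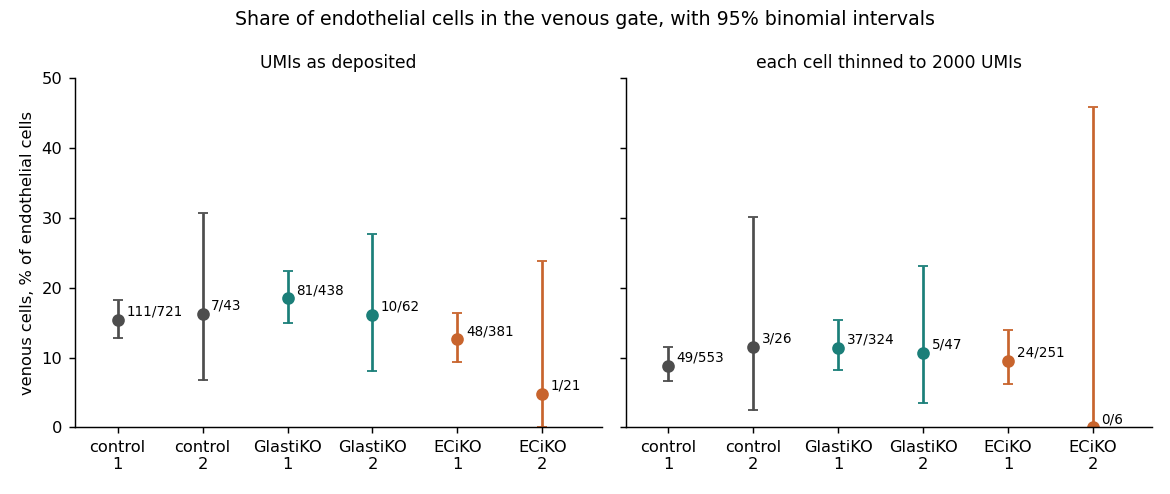
Share of endothelial cells inside the venous gate (percent, vertical axis) in each of the 6 libraries, with exact 95% intervals, as counted and after thinning to 2000 UMIs. Cells with fewer than 2000 UMIs were left out of the thinned share. The libraries with over 100 endothelial cells lie between 12.6% and 18.5% as counted, and the 21 endothelial cells of ECiKO replicate 2 leave an interval from 0.12 to 23.8%.

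The gate UMIs of most cells came mainly from Vwf and Slc38a5. These genes helped to choose the cells, so this describes the gate and is no separate sign of identity. In 189 of the 258 cells (73.3%) Vwf, the gene of von Willebrand factor, and Slc38a5, a glutamine transporter gene, together gave more UMIs than the other 4 genes. In 56 cells (21.7%) Vcam1, Icam1, Il1r1 and Lcn2 gave more, and in 13 cells the sums were equal. The gate sum had a median of 6 UMIs and reached 95. Of the cells, 52 had UMIs of 1 gate gene, 87 of 2 genes, 55 of 3, 34 of 4, 19 of 5 and 11 of all 6. Slc38a5 was found in 84.9% of venous cells, 23.8% of the other endothelial cells and 1.80% of the 167 pericyte-gated cells, a class that should lack it. Those pericyte-gated cells had a median of 4629 UMIs, and by library from 1212.5 in ECiKO replicate 2 to 6498 in GlastiKO replicate 2. Whether depth bears on their shares was not tested. Vwf was found in 69.8%, 20.5% and 3.59% of these same classes. Icam1, an adhesion receptor for leukocytes, was found in 33.3%, 4.40% and 1.80%, and Vcam1, a second such receptor, in 27.5%, 2.70% and 1.80%. Il1r1, the interleukin 1 receptor gene, was found in 37.2% of venous cells, 3.98% of other endothelial cells and 21.6% of pericyte-gated cells. Lcn2, which encodes the iron-scavenging protein lipocalin 2, was found in 14.0% of venous cells, 0.426% of other endothelial cells and no pericyte-gated cell. Not all of the gate genes set the venous cells apart from the 130 arterial cells: of those, 49.2% had a UMI of Vwf and 21.5% one of Vcam1, against 5.38% for Slc38a5, 7.69% for Icam1, 1.54% for Il1r1 and 0.769% for Lcn2.

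The gate genes were present together beyond the rule that summed them. When each gene in turn was taken out and the cells were gated on the other 5, the level of the gene left out could be read without having chosen the cells. Levels are given in CPM, the UMIs of a gene per 1000000 UMIs of the summed cells. The gated cells exceeded the rest 3.64-fold for Vwf, 3.01-fold for Slc38a5, 7.78-fold for Il1r1, 7.55-fold for Icam1, 16.5-fold for Vcam1 and 57.0-fold for Lcn2. These folds pool the libraries, and those numbered 1 carry them, with 2.75-fold for Slc38a5 in control as the lowest there. In the libraries numbered 2, with 1 to 10 gated cells each, Vcam1 stood at a ratio of 0.564 and Icam1 at 0.737 in GlastiKO, no gated cell of control had a UMI of Icam1, and the single gated cell of ECiKO had none of Slc38a5. Near the threshold the change was gradual. There were 59 cells with exactly 4 gate UMIs, 88 cells with 3 that stayed outside, and 22 with 4 or more that did not exceed their arterial sum. Nr2f2, no part of the gate, stood at 192 CPM in cells with 5 or more gate UMIs, 88.4 CPM in those with 4, 56.4 CPM in those with 3 and 30.1 CPM in those with none. Cxcl12, a chemokine gene of capillary and arterial endothelium, ran the other way over these same steps, with 1738, 3591, 4996 and 5466 CPM. The cells with no gate UMI were also the shallowest, with a median of 2209 UMIs.

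Transcripts of other cell types were scarce. Over all 258 cells the 8 pericyte markers summed to 7 UMIs (at most 13.8 CPM in a library, with Kcnj8, Ndufa4l2 and Cspg4 at 0), and the 5 smooth muscle markers to 4 UMIs (at most 4.25 CPM, with Acta2 and Cnn1 at 0). The leukocyte markers summed to 2 UMIs, with Ptprc and Cd3e among the 6 of 7 at 0. The 8 markers of microglia and macrophages gave 1 UMI, and 7 of them, Csf1r and Cx3cr1 included, were at 0. Astroglial markers gave 15 UMIs (at most 36.9 CPM in a library). Oligodendrocyte markers gave 29, of which 11 were in the 10 venous cells of GlastiKO replicate 2 (256 CPM, beside 214 CPM in the other endothelial cells there) and 2 in the 7 of control replicate 2 (73.8 CPM). Haemoglobin and other erythroid genes gave 109 UMIs (0 to 115 CPM by library), while the other endothelial cells reached 33949 CPM in GlastiKO replicate 2, where 1 cell held 5979 of 6028 UMIs. Genes of fenestrated endothelium, such as Plvap, gave 402 UMIs, with 7 cells holding 2 or more each, and reached 5204 CPM in control replicate 2. The endothelial genes of the gate stood at 7191 to 13070 CPM in every library. These genes chose the cells, so their level is no separate sign of identity.

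Gja1 (chromosome 10, 56377330-56402513 in mm10), the gene deleted in this study, was found in venous cells at about the level of the other endothelial cells. Its level in venous cells was 88.2 and 258 CPM in control replicates 1 and 2, from 46 and 7 UMIs. It was 163 and 163 CPM in GlastiKO (59 and 7 UMIs) and 144 CPM in ECiKO replicate 1 (34 UMIs), with no UMI in the single cell of ECiKO replicate 2, where 3 UMIs would be 634 CPM. The control values enclose those of GlastiKO and of ECiKO replicate 1. In the other endothelial cells the levels were 93.7 and 66.1 CPM in control, 138 and 146 CPM in GlastiKO, and 248 and 240 CPM in ECiKO, so the libraries labelled ECiKO had the highest endothelial Gja1 counts. The labels do not say which part of Gja1 was deleted, so it cannot be told whether 3' counts would show the deletion, and the groups are called by their labels throughout. Across libraries, Gja1 differed from the other endothelial cells by a log2 fold change of -0.09 ± 0.18 (SE, edgeR's quasi-likelihood test, adjusted p = 0.923), and by -0.19 ± 0.24 from arterial cells (adjusted p = 0.793). Neither passed the test, and both turned positive (0.16 and 0.11) without ECiKO replicate 1. Venous cells with a Gja1 UMI made up 20.7% and 42.9% of the control libraries, 37.0% and 40.0% of GlastiKO and 27.1% of ECiKO replicate 1. Pericyte-gated cells had shares of 0% to 17.6%, all below those of the venous cells except in ECiKO replicate 2. Their levels were 0 and 214 CPM in control, 0 and 311 CPM in GlastiKO, and 35.8 and 173 CPM in ECiKO. By level they thus stood above the venous cells in GlastiKO replicate 2 and ECiKO replicate 2, and below them elsewhere.

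The first comparison set the venous cells against all other endothelial cells of the same library, with the UMIs summed by library and the gate genes of all 3 gates left out. A library block was fitted over the 5 libraries with at least 3 venous cells. Of 5039 genes tested, 76 were higher in venous cells (1.51%) and 59 lower (1.17%), together 2.68%, at an adjusted p under 0.05. The higher genes included Nr2f2 and Nrp2 of veins, the ligand genes Wnt5a and Csf1 and the NF-kB regulator Nfkbiz. The lower ones included the arterial genes Alpl, Unc5b and Efnb2 and the chemokine gene Cxcl12.

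Venous identity genes were among those higher. Nr2f2 (chromosome 7, 70351944-70366735 in mm10), the transcription factor gene that specifies veins, measured 184 and 36.9 CPM in the venous cells of control, 177 and 140 CPM in GlastiKO and 149 CPM in ECiKO replicate 1. In the other endothelial cells of the same libraries it measured 25.3, 33.1, 40, 39.4 and 26.6 CPM. The groups of values did not overlap except through control replicate 2, whose 7 venous cells sat close to the rest, and the fold was 5.42 (log2 fold change 2.44 ± 0.203 SE, adjusted p = 8.89e-14). Nrp2, a coreceptor for semaphorins and VEGF-C, was 3.32-fold higher (1.73 ± 0.203, adjusted p = 5.21e-09). Tmsb10, the gene of the actin-binding protein thymosin beta 10, was high in both classes, at 923 to 2140 CPM in venous cells and 428 to 617 CPM in the others (2.98-fold, 1.58 ± 0.129, adjusted p = 5.14e-14). Of 20 genes listed for veins outside the gate, 13 could be tested, 7 were higher and none lower, with a median log2 fold change of 1.31 against -0.00 over all genes tested. Also called were Ctsc (1.55), Prcp (1.36) and Tgm2 (1.31), which encode the protease cathepsin C, a prolylcarboxypeptidase and a transglutaminase. The 13 members tested had to pass a filter on low counts, so they are the better expressed ones. The gate itself asked for genes of veins, so the direction of this list was in part set by the choice of cells.

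Among secreted ligands, Wnt5a had the largest fold of the named genes. Wnt5a (chromosome 14, 28504750-28527448), a ligand of non-canonical Wnt signalling, measured 197 and 73.8 CPM in control, 172 and 140 CPM in GlastiKO and 191 CPM in ECiKO replicate 1, against 24.8, 11, 15, 45.1 and 27.5 CPM in the other cells. The ranges were separate, and the fold was 7.79 (2.96 ± 0.208, adjusted p = 1.54e-16). Csf1, the growth factor that maintains microglia and macrophages through their receptor Csf1r, measured 123, 221, 169, 233 and 93.4 CPM against 37.3, 55.1, 44.1, 33.8 and 26.6 CPM (3.67-fold, 1.88 ± 0.2, adjusted p = 3.65e-10). Csf1 ranges were also separate. Flrt2, a membrane protein that binds Unc5 receptors, was 3.47-fold higher. Other genes named by the rule were Rnase4 (2.91-fold), Tmem176b (2.85-fold), Prcp (2.57-fold), Hs3st1, which modifies heparan sulfate (2.36-fold), Apod, the gene of apolipoprotein D (2.34-fold), and Ccdc85a (1.92-fold), each higher in 5 of 5 libraries.

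**Figure D2:**
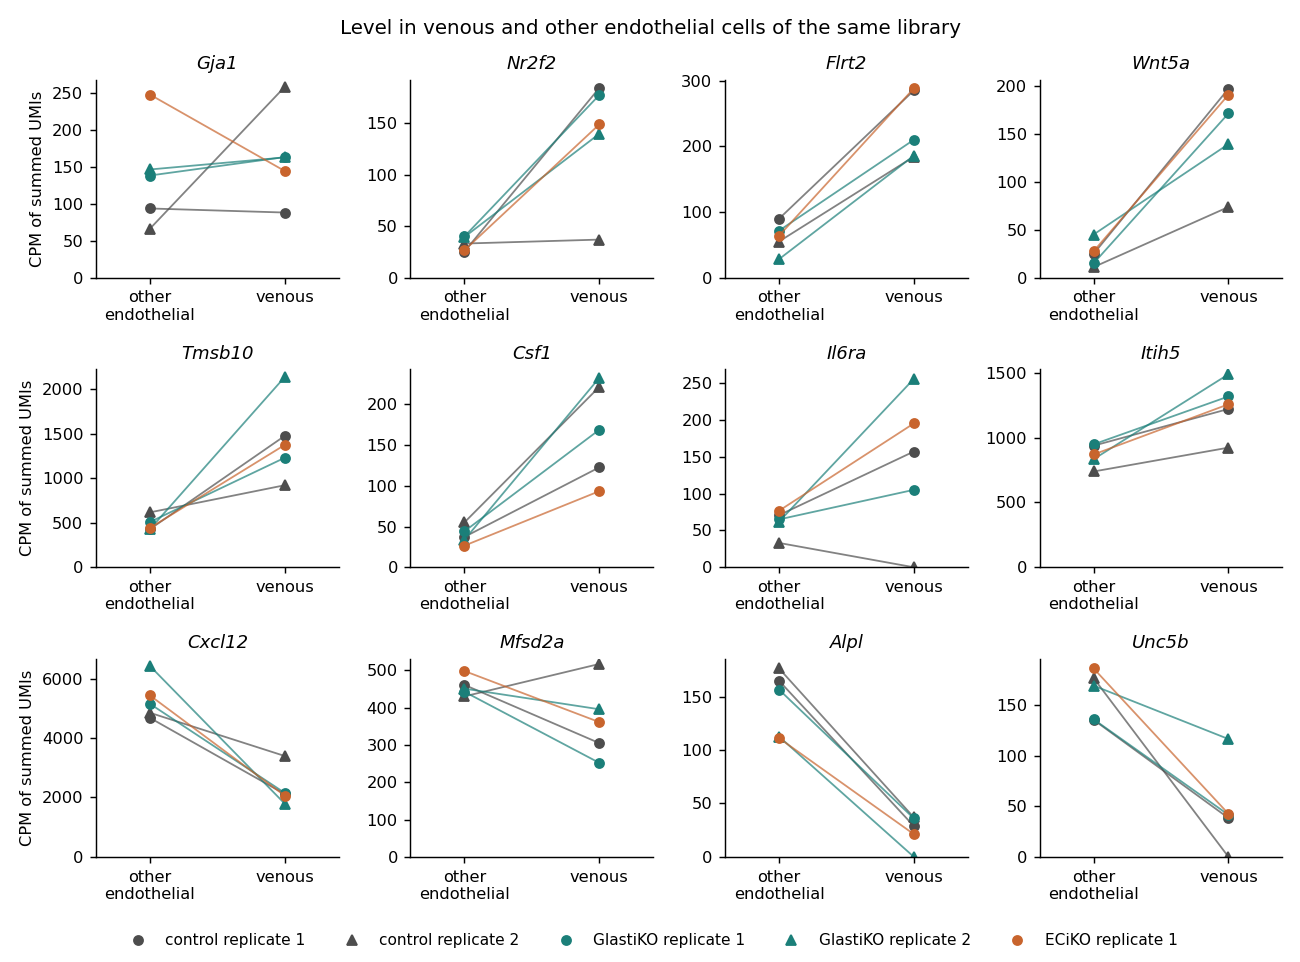
CPM (vertical axes) of Gja1, Nr2f2, Flrt2, Wnt5a, Tmsb10, Csf1, Il6ra, Itih5, Cxcl12, Mfsd2a, Alpl and Unc5b in venous cells and in the other endothelial cells of each of 5 libraries, with circles for replicate 1 and triangles for replicate 2. Wnt5a and Csf1 do not overlap between the classes, Alpl and Cxcl12 lie lower in venous cells in every library, and Gja1 overlaps.

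Activation genes were higher in part. Of 22 NF-kB and cytokine response genes, 9 could be tested and 3 were higher (Csf1, Nfkbiz and Cebpd), beside 1.51% of all genes tested. The gate summed 4 genes raised by cytokines, so this direction was in part set by the choice of cells. Nfkbiz, which encodes the nuclear NF-kB regulator I-kappa-B-zeta, measured 65.2, 111, 88.6, 140 and 80.7 CPM against 23.4, 22, 44.1, 11.3 and 25.6 CPM (2.76-fold, 1.46 ± 0.251, adjusted p = 4.71e-05). Cebpd, a transcription factor gene of the acute response, was 1.83-fold higher in 4 of 5 libraries (0.87 ± 0.178, adjusted p = 0.000865). The list's median was 0.36, and none of its 9 tested members was lower past the threshold. The receptor genes for interleukin 6 were higher: Il6ra 2.18-fold (1.12 ± 0.182, adjusted p = 1.58e-05) and Il6st, its signalling subunit gp130, 1.61-fold (0.69 ± 0.149, adjusted p = 0.00196), each in 4 of 5 libraries. They were the 2 called of 12 cytokine receptor genes tested, whose median was -0.10. Leukocyte trafficking genes outside the gate gave no call among 10 tested (median -0.02), and the 5 coagulation genes and the 1 prostaglandin gene tested gave none. Of 22 class I MHC and interferon genes, H2-Q7 was higher (1.16, adjusted p = 0.00644) and Ly6c1 lower (-0.49, adjusted p = 0.0228). Both belong to families of near-identical genes, so the assignment of their reads is uncertain.

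Several genes typical of cytokine-activated endothelium were too rare for this test, and were looked at after their values were seen. Ackr1, the chemokine-binding receptor of venules, gave 82 UMIs over all barcodes. Of these, 53 were in endothelial cells, with 52 in 14 venous cells, and the rest lay outside the endothelial gate. All 45 endothelial UMIs of Lrg1, a venular glycoprotein gene, were in 15 venous cells, 30 of them in control replicate 1, and without that library the venous level was 22.3 CPM in place of 37.7 CPM. Ch25h, which makes an oxysterol, gave 83 UMIs in 22 venous cells, or 69.5 CPM, against 3.51 CPM in endothelial cells of neither gate. GlastiKO replicate 1 held 56 of these 83 UMIs, and without it the level was 32.4 CPM, while without control replicate 1 it was 107 CPM. Ptgs2, the inducible prostaglandin synthase, gave 288 UMIs in 39 venous cells, and 5 of those cells held 71.2% of them. Control replicate 1 held 201 of the 288, and without it the level was 130 CPM in place of 241 CPM. Cxcl1, a chemokine gene, was less confined, with 27 of its 51 endothelial UMIs in 14 venous cells and 98 UMIs over all barcodes. Ccl2 gave 24 UMIs and Selp 1 over all barcodes, none of them in an endothelial cell. No UMI of Sele or Il6 was present in any barcode.

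Immediate early genes, which dissociation of tissue is known to induce, were also higher. Of 17 tested, 6 were higher and none lower, with a median of 0.34: Atf3 (0.84), Ier3 (0.82), Zfp36 (0.80), Fosb (0.71), Egr1 (0.63) and Junb (0.51). For Ier3, Zfp36, Fosb, Egr1 and Junb the difference held in 4 of 5 libraries, with GlastiKO replicate 2 the exception; Atf3 was higher in 3 of 5. With DESeq2 none of the 6 was called, and with a gate of Vwf, Slc38a5 and Il1r1 alone Atf3, Egr1, Fosb and Junb were not (adjusted p 0.0926 to 0.565). In GlastiKO replicate 2 the 10 venous cells had no UMI of Fosb or Egr1, while the other endothelial cells there had 287 and 231 CPM. Of 11 heat shock genes 1 was higher, Hspa1a (0.50, adjusted p = 0.0269), in 3 of 5 libraries. The assignment of reads between Hspa1a and the near-identical Hspa1b is uncertain. Whether these genes bear on the NF-kB group was not tested. Ribosomal protein genes all lay above 0 (80 of 80, median 0.22), but 3 of them passed the test.

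Of the 59 lower genes, 6 were on the arterial list and 4 on the capillary list. Alpl, the tissue-nonspecific alkaline phosphatase, measured 28.7, 36.9, 36, 0 and 21.2 CPM in venous cells against 165, 176, 157, 113 and 111 CPM (5.24-fold lower, -2.39 ± 0.234, adjusted p = 2.16e-11). Unc5b, a netrin receptor, was 3.49-fold lower (-1.80 ± 0.216), and Efnb2, the ephrin ligand that marks arteries, 2.76-fold lower (-1.46 ± 0.223). Of 11 arterial genes tested outside the gate, 6 were lower and none higher, all 11 lay below 0, and the median was -0.55. The arterial-gated cells are part of the other endothelial cells, and the venous gate itself asked for few arterial UMIs, so this direction was in part set by the choice of cells. Cxcl12 (chromosome 6, 117168535-117181367) also differed in every library. It measured 2116, 3395, 2153, 1791 and 2060 CPM in venous cells against 4679, 4850, 5152, 6426 and 5434 CPM (2.41-fold lower, -1.27 ± 0.146, adjusted p = 3.01e-09), and the ranges were separate. Other genes named by the rule and lower in 5 of 5 libraries were the mediator kinase Cdk19 (3.71-fold), the transporter Atp13a3 (2.96-fold), the nuclear envelope gene Syne1 (2.20-fold), glutamine synthetase Glul (2.18-fold), the growth factor Tgfb2 (2.16-fold), Mlec (2.15-fold), Tmeff1 (2.06-fold), the metalloproteinase inhibitor Timp3 (2.01-fold), Rasgrp2 (1.92-fold), Itprid2 (1.85-fold) and the phospholipase Plcb1 (1.83-fold).

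Capillary genes were split, and barrier genes gave no call. Of 17 capillary genes tested, 4 were lower: Cxcl12, Ivns1abp (-0.63), Rgcc (-0.59) and Mfsd2a (-0.55, adjusted p = 0.00392), the lipid transporter that keeps transcytosis low at the barrier. The carbonic anhydrase gene Car4 (0.58 ± 0.125, adjusted p = 0.00175) and Itih5 (0.48 ± 0.117, adjusted p = 0.00741), whose product stabilises hyaluronan, were higher, and the list's median was -0.07. None of 20 blood-brain barrier genes passed in either direction, with a median of -0.03 and the lowest at -0.31. Of 15 basement membrane genes, fibronectin (Fn1) was higher (0.45, adjusted p = 0.0203). Of 12 vascular niche factors, which are secreted or membrane-bound signals to neighbouring stem cells, Efnb2, Cxcl12 and the stem cell factor gene Kitl (-0.45, adjusted p = 0.0222) were lower and none was higher. Mitochondrial genes gave no call among 13.

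**Figure D3:**
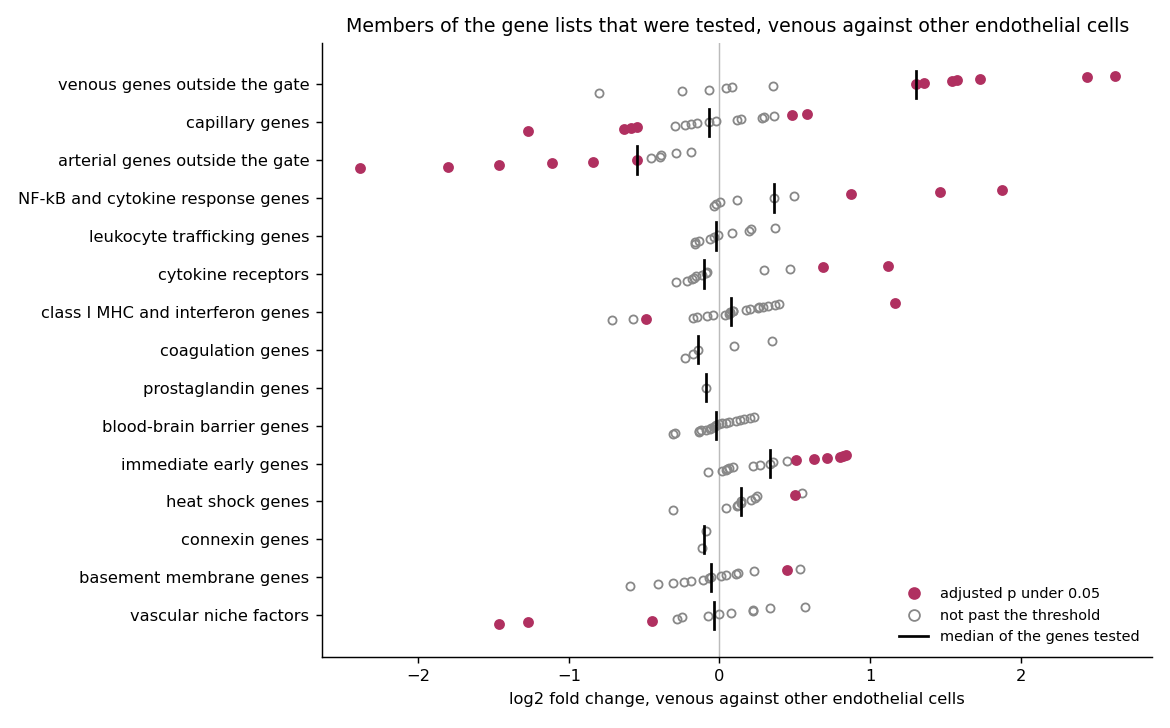
Log2 fold changes (horizontal axis) of the tested members of each of 15 gene lists, venous against other endothelial cells, with filled points for members past an adjusted p of 0.05, open points for the others and a bar at each list's median. Venous genes outside the gate have a median of 1.31 and arterial genes one of -0.55, while barrier genes have no filled point.

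Leaving out a library left the larger differences called and ended the call of many smaller ones. The filter on low counts also changed the number of genes tested, so the counts of calls are not over the same genes. That number was 5039 in the main fit, 3760 without control replicate 1, 3801 without GlastiKO replicate 1 and 4670 without ECiKO replicate 1. It was 6414 without control replicate 2 and 8104 with the libraries numbered 1 alone. With the libraries numbered 1 alone, 152 genes were higher and 122 lower, and all 53 called genes followed here kept their call. Without control replicate 1, which held 111 of the venous cells, 23 genes were higher and 19 lower, and 22 of 49 called genes that could be followed lost their call (adjusted p 0.0562 to 0.795): Atf3, Car4, Ccdc85a, Cebpd, Dll4, Egr1, Fn1, Fosb, Hspa1a, Ier3, Il6st, Itih5, Ivns1abp, Junb, Kitl, Ltbp4, Ly6c1, Mfsd2a, Mlec, Plcb1, Rgcc and Tmeff1. Without GlastiKO replicate 1 the counts were 41 and 33, and Atf3, Car4, Dll4, Egr1, Fn1, Fosb, Itih5, Itprid2, Junb, Kitl and Mfsd2a lost theirs (adjusted p 0.0724 to 0.384). Without ECiKO replicate 1 they were 40 and 34, and Cebpd, Egr1, Fn1, Hspa1a, Il6st, Itih5, Itprid2, Junb, Kitl, Ltbp4, Ly6c1, Mfsd2a, Mlec and Rgcc lost theirs (adjusted p 0.0516 to 0.461). Leaving out control replicate 2, with its 7 venous cells, gave 115 and 104 genes. The venous cells were deeper than the rest. With cells of at least 2000 UMIs thinned to 2000 and the others left out, the counts were 38 and 34 of 1364 genes tested. Of 30 called genes that could be followed there, Car4, Egr1, Fosb, Hspa1a, Junb, Ltbp4, Plcb1 and Zfp36 were no longer called (adjusted p 0.0719 to 0.993). DESeq2 did not call Atf3, Car4, Cebpd, Dll4, Egr1, Fn1, Fosb, H2-Q7, Hspa1a, Ier3, Il6st, Itprid2, Junb, Ly6c1, Mlec, Rgcc and Zfp36 (adjusted p 0.0547 to 0.998).

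The second comparison set venous cells against arterial cells of the same libraries and used the same venous values as the first. Of 2904 genes tested, 120 were higher in venous cells (4.13%) and 113 lower (3.89%), together 8.02%. Nrp2 was 40.0-fold higher, with 3.65 and 7.61 CPM in the arterial cells of control replicate 1 and ECiKO replicate 1 and none in the other 3 libraries (5.32 ± 0.543, adjusted p = 5.1e-17). Tmsb10 was 23.6-fold higher (4.56 ± 0.288, adjusted p = 5.82e-36), with arterial levels of 0 to 114 CPM. Car4 was 19.5-fold higher (4.29 ± 0.293, adjusted p = 3.47e-32) and Wnt5a 15.1-fold higher (3.91 ± 0.408, adjusted p = 2.15e-16). Nr2f2 gave too few UMIs in arterial cells for the test, with 3.21 CPM over all of them against 170 CPM in venous cells. The rest of the named genes were Rnase4 (20.2-fold), Flrt2 (13.9-fold), Ndnf, a secreted neurotrophic factor gene (8.60-fold), Ctla2a (5.88-fold), Ttyh2 (5.15-fold), Gatm, the first enzyme of creatine synthesis (5.03-fold), Apod (4.44-fold), Ier3 (4.19-fold), the monocarboxylate transporter Slc16a1 (4.03-fold), Mapk6 (3.56-fold) and Pgm5 (3.36-fold), each higher in 5 of 5 libraries.

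Lower in venous than in arterial cells were, first, Syt15 (18.2-fold, -4.18 ± 0.527, adjusted p = 8.21e-12), Stmn2 (14.5-fold), a tubulin-binding stathmin gene, and Alpl (13.6-fold, -3.76 ± 0.279, adjusted p = 1.79e-28). Alpl measured 453, 132, 421, 354 and 243 CPM in arterial cells, all above its venous values. Cdk19 (9.98-fold), Amd1 (8.24-fold), cyclin D2 (Ccnd2, 7.76-fold), Unc5b (7.51-fold), Rad54b (7.41-fold), Atp13a3 (6.96-fold), Efnb2 (5.35-fold), Itprid2 (5.10-fold), Glul (4.31-fold), Tgfb2 (4.20-fold), Tm4sf1 (4.19-fold) and Crispld1 (4.12-fold) were lower in 5 of 5 libraries. Of 12 arterial genes tested outside the gate, 11 were lower, with a median of -1.27 against 0.02 over all genes. The mirror gates chose both classes, so this direction too was in part given by the choice.

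Capillary and transport genes also set the venous cells apart from the arterial ones. Of 17 capillary genes tested, 10 were higher in venous than in arterial cells, with a median of 0.86. They included Car4, the transferrin receptor Tfrc (2.09 ± 0.238, adjusted p = 2.99e-14), Slc16a1, the organic anion transporter Slc22a8 (1.30), and both chains of the large amino acid transporter, Slc7a5 (1.20) and Slc3a2. Cxcl12 was lower (-0.74 ± 0.186, adjusted p = 0.00199), in 4 of 5 libraries. Of 10 vein genes tested outside the gate, 5 were higher, among them Nrp2, Tmsb10, Ctsc and Tgm2, and Mmrn2 was lower (-0.77), with a median of 0.65. Of 20 blood-brain barrier genes, Slc7a1 (0.96), Slco2b1 (0.94) and Insr (0.65) were higher. Csf1, Cebpd and Nfkbiz were the 3 called of 8 NF-kB genes, Csf1 by 3.12-fold (1.64 ± 0.319, adjusted p = 2.34e-05). Here too the gate's vein and cytokine-response genes set the directions of the vein and NF-kB lists in part. Ptgs2 was 3.25-fold higher (1.70 ± 0.284, adjusted p = 4.28e-07), in 3 of 5 libraries. Of 17 MHC and interferon genes none was higher and 3 were lower (Ly6c1, B2m and Ly6a), with a median of -0.36. Of 9 vascular niche factors, Tgfb1 (0.99) was higher, and Efnb2, Igfbp3, Cxcl12 and Kitl were lower.

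Summed over all libraries, the 3 classes of endothelium ordered the genes differently. Tmsb10 fell in the order venous, neither, arterial, with 1390, 517 and 57.7 CPM, and Car4 followed the same order with 942, 698 and 48.1 CPM. Cxcl12 had the opposite pattern between venous cells (2125 CPM) and cells of neither gate (5302 CPM), with arterial cells between them at 3448 CPM. Syne1 was lowest in venous cells, at 331 CPM, against 612 CPM in arterial cells and 744 CPM in neither.

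The arterial sums held 3 to 59 cells in the libraries tested, and the counts of calls moved with them: 41 higher and 38 lower without GlastiKO replicate 1, 48 and 47 without control replicate 1, and 60 and 70 without ECiKO replicate 1. Genes tested in these fits numbered 1629, 1594 and 2096, against 2904 in the main fit. All 30 genes named by size of difference kept their call in every setting in which they could be tested. Among the list members, the calls of Nfkbiz and Insr were the least stable: Nfkbiz kept its call in 1 of the 12 alternatives in which it could be tested (adjusted p up to 0.128) and Insr in 3 of 17 (up to 0.32). DESeq2 called neither, and 13 other members lost their call with it, Cxcl12, Ptgs2, Slco2b1, Tgfb1, Igfbp3, B2m and Mmrn2 among them (adjusted p 0.0511 to 0.63). Calls were also lost by Tgm2 without control replicate 1, and Cxcl12, Slc3a2, Slc7a1, Slco2b1, Igfbp3, Kitl, B2m, Ly6a and Mmrn2 among 20 without GlastiKO replicate 1 (adjusted p 0.0704 to 0.584). Cxcl12, Igfbp3, Kitl, Tgfb1, B2m, Ly6a and Mmrn2 were among 14 lost without ECiKO replicate 1 (adjusted p 0.0505 to 0.32), and Kitl, B2m, Ly6a and Mmrn2 among 14 without control replicate 1 (adjusted p 0.0615 to 0.217).

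The venous cells were not uniform, and other genes changed with their number of gate UMIs. For this description, set after the data were seen and given no test, the cells were split by gate UMIs: 105 cells with 4 to 5, 78 with 6 to 9, 43 with 10 to 19 and 32 with 20 or more. Their median depths were 3936, 4550, 4639 and 4744 UMIs. The make-up of the gate changed as well. From the lowest to the top step Vcam1 went from 48.0 to 2532 CPM and Lcn2 from 0 to 495 CPM. Vwf went from 286 to 1312 CPM and Slc38a5 from 572 to 1067 CPM. The steps are therefore not of vein genes alone. Of the 32 top cells, 13 were of GlastiKO replicate 1, 10 of control replicate 1 and 7 of ECiKO replicate 1. Nr2f2 stood at 78.6, 144, 313 and 294 CPM along these steps, level between the upper ones, and Nrp2 at 100.4, 119, 217 and 338 CPM. Wnt5a stood at 89.5, 122, 308 and 403 CPM and Tmsb10 at 1166, 1352, 1630 and 1764 CPM. Ackr1 was nearly confined to the top step, with 2.18, 0, 5.05 and 272 CPM, and Ch25h, with 6.55, 14.1, 20.2 and 387 CPM, likewise. Lrg1 (0, 2.83, 40.4 and 196 CPM) appeared a step earlier. Csf1 stood at 54.6, 99.0, 131 and 419 CPM.

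Several capillary genes ran down along the same steps. Cxcl12 stood at 3008, 2300, 1428 and 338 CPM, and its exact 95% Poisson intervals did not touch between any neighbouring steps (2851 to 3171 CPM in the lowest, 259 to 433 CPM in the highest). Mfsd2a stood at 369, 345, 242 and 152 CPM. Car4 was level over the first 3 steps, at 1011, 1117 and 939 CPM, and stood at 436 CPM in the top one. The glucose transporter gene Slc2a1, a hallmark of brain endothelium, varied less, with 1890, 2093, 1777 and 1693 CPM. Gja1 stood at 181, 124, 65.6 and 70.8 CPM, with intervals of 144 to 225 CPM in the lowest step and 37.7 to 121 CPM in the highest. The intervals in this paragraph pool the libraries and cover counting error only, not the spread between cells or libraries.

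**Figure D4:**
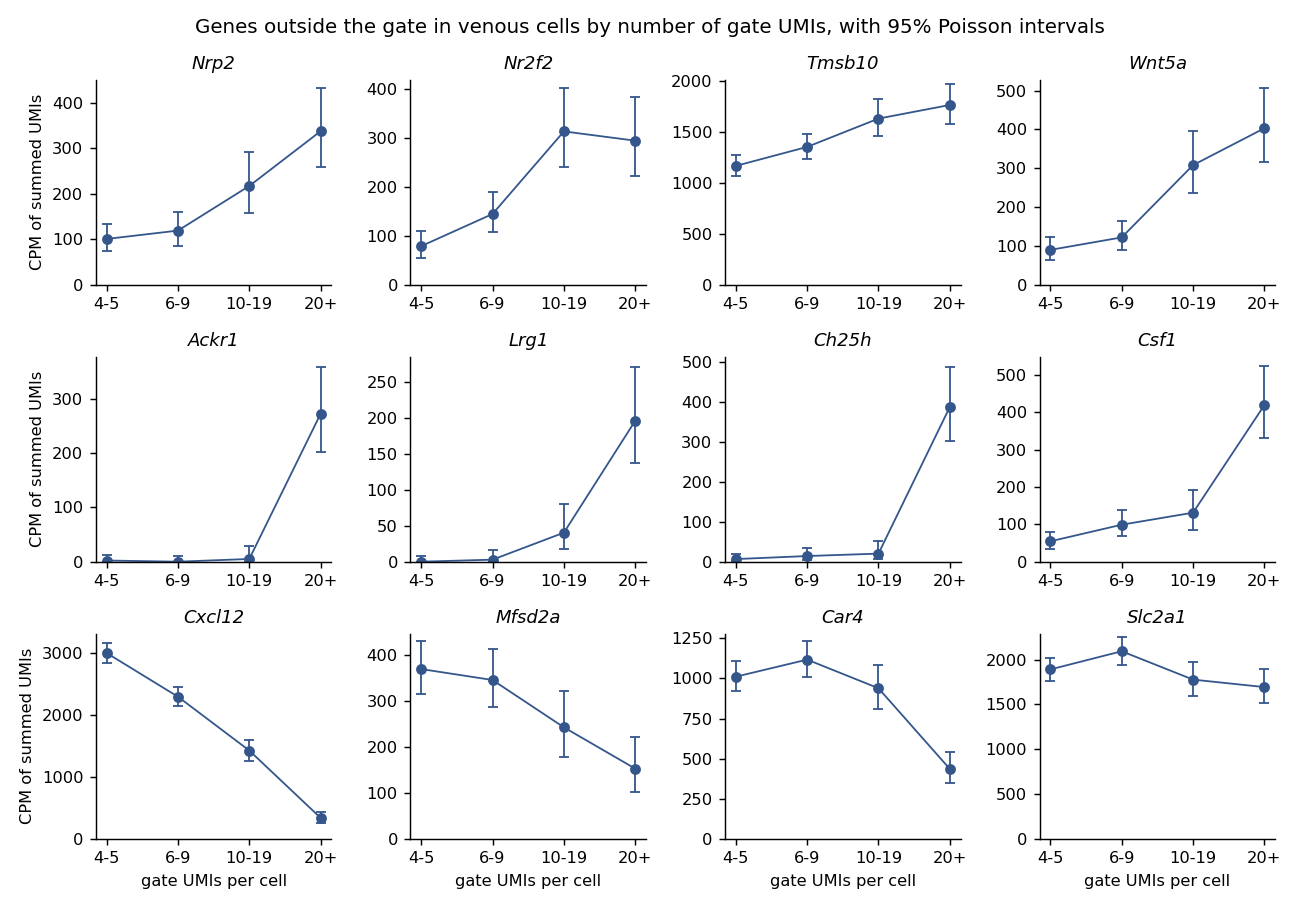
CPM (vertical axes) of 12 genes over venous cells grouped by their gate UMIs (4 to 5, 6 to 9, 10 to 19, 20 or more), pooled over libraries, with exact Poisson intervals that cover counting error only. Ackr1, Lrg1 and Ch25h appear mainly in the highest group, Cxcl12 runs from 3008 down to 338 CPM, and Slc2a1 stays between 1693 and 2093 CPM.

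A second description split the cells by which gate genes led. The 189 cells led by Vwf and Slc38a5 are called vessel-led here and the 56 led by Vcam1, Icam1, Il1r1 and Lcn2 activation-led. No test was made. Cytokines raise the genes that chose the activation-led cells, so the direction of NF-kB and cytokine response genes was in part set by that choice. Vcam1 and Lcn2 also rose along the steps of gate UMIs above, so this split is not separate from those steps. The activation-led cells had 359 CPM of Csf1 against 75.6 CPM, 202 CPM of Nfkbiz against 46.3 CPM, 1181 CPM of Nfkbia, an inhibitor and target of NF-kB, against 625 CPM, and 160 CPM of Ackr1 against 11.3 CPM. Ptgs2 stood at 733 against 106 CPM, and H2-Q7 at 160 against 28.2 CPM. Venous identity genes were present in both: Nr2f2 at 252 and 147 CPM, and Tmsb10 at 1410 and 1369 CPM. Several capillary genes were lower in the activation-led cells by these values. Cxcl12 stood at 676 CPM in activation-led and 2548 CPM in vessel-led cells, Mfsd2a at 103 and 367 CPM, Tfrc at 504 and 1321 CPM, Ivns1abp at 53.5 and 515 CPM, and the integrin gene Itga4 at 11.5 and 94.8 CPM. Gja1 stood at 141 CPM in activation-led and 131 CPM in vessel-led cells.

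Of the genes named in this split, all but Tmsb10 and Gja1 had the same direction in each of the 3 libraries numbered 1. Cxcl12 in vessel-led against activation-led cells measured 2435 against 676 CPM in control, 2586 against 597 CPM in GlastiKO and 2579 against 858 CPM in ECiKO. Csf1 measured 64.5 against 385 CPM, 93.8 against 435 CPM and 42.6 against 211 CPM in these same libraries. Mfsd2a measured 347 against 93.6 CPM, 300 against 112 CPM and 462 against 127 CPM. Tmsb10 had no common direction, at 1559 against 1029 CPM in control and 1073 against 1804 CPM in GlastiKO. The activation-led share was 18.0% of venous cells in control replicate 1, 24.7% in GlastiKO replicate 1 and 25% in ECiKO replicate 1, or 20, 20 and 12 cells.

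**Figure D5:**
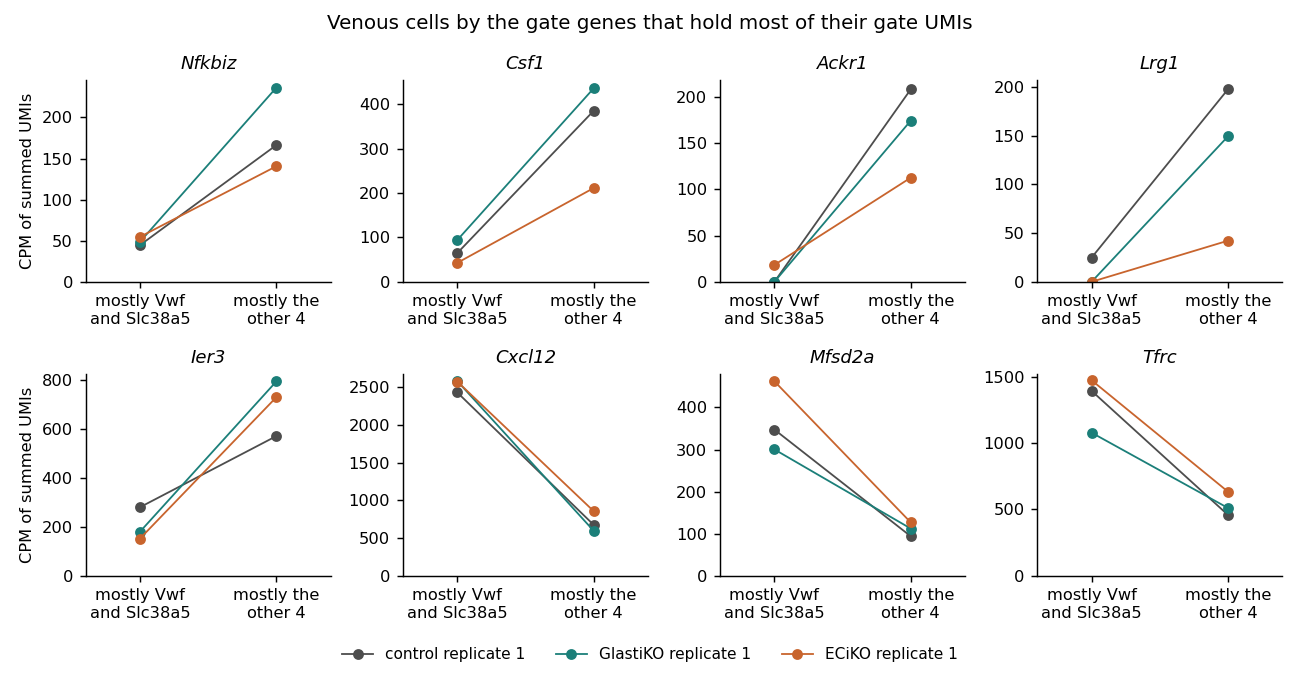
CPM (vertical axes) of 8 genes in vessel-led and activation-led venous cells of the 3 libraries numbered 1. Nfkbiz, Csf1 and Ier3 are higher and Cxcl12, Mfsd2a and Tfrc lower in activation-led cells of all 3 libraries.

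The third comparison asked whether venous cells of GlastiKO mice differed from those of controls. Of 6362 genes tested over the 5 libraries, none was higher (0%) and 4 were lower (0.0629%) by edgeR, with 79 genes at an unadjusted p under 0.05, and DESeq2 called none. The 4 were Igfbp3, Plvap, Plpp3 and Tcim, and in each control library 1 cell held most UMIs of the first 3. Igfbp3, whose product binds insulin-like growth factors, measured 155 and 2177 CPM in the control libraries against 16.6 and 0 CPM in GlastiKO (-5.68 ± 0.685, adjusted p = 7.94e-13). In control replicate 1 a single cell held 80 of its 81 UMIs, and in control replicate 2 a single cell of 7 held all 59. The same cells held all 41 and 18 UMIs of Plvap, the diaphragm protein of fenestrated vessels. Plvap had no UMI in either GlastiKO library, at least 14.5-fold lower than the 107 CPM of control against a floor of 3 UMIs over both GlastiKO libraries. They also held 56 of 62 and 52 of 52 UMIs of Plpp3, a lipid phosphatase gene (-4.07 ± 0.604, adjusted p = 5.67e-08), and 7 of 21 and 22 of 23 UMIs of Tcim (-2.95 ± 0.682, adjusted p = 0.0246). Igfbp3, Plvap and Plpp3 were named after their values were seen. Without cells that carried 3 or more UMIs of Plvap, Esm1 and Igfbp3, no gene was lower or higher, and Plpp3 turned to a log2 fold change of 1.76. Without control replicate 1, 7 genes were higher and 11 lower.

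Beyond these, the genes with the smallest p among those whose libraries did not overlap between the groups did not pass, and non-overlap itself was no result, at 16.6% of genes on the higher side and 12.3% on the lower. They were Itga4 (1.73 ± 0.574), Notch4 (1.64 ± 0.546), the kinase gene Sik1 (1.42 ± 0.514), Ckap5 (1.73 ± 0.645) and Xist (1.13 ± 0.465) on the higher side. On the lower side were Cebpb (-3.30 ± 0.973, adjusted p = 0.409), Plscr2 (-1.69 ± 0.608), Fxr1 (-1.28 ± 0.517) and Ide (-1.6 ± 0.689). Except for Cebpb all had an adjusted p of 1. Notch4, an endothelial Notch receptor, measured 47.9 and 0 CPM in the control libraries against 127 and 163 CPM in GlastiKO. Cebpb rested on control replicate 2, with 517 CPM there beside 21.1, 11.1 and 0 CPM in the other 3 libraries. Gja1 differed by 0.56 ± 0.512 (adjusted p = 1). None of 15 vein genes, 18 NF-kB genes, 16 cytokine receptors or 20 barrier genes was called, with medians of -0.28, 0.10, 0.06 and 0.06 against 0.02 over all genes tested. With data simulated on these libraries, the same fit called 43 of 100 genes changed 4-fold and 3 of 100 changed 2-fold at 50 CPM or more, so differences of 2-fold could mostly not be detected.

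ECiKO against control rested on 48 venous cells of 1 library, so it has no replicate check and was described by ratios of CPM. Among 696 genes with at least 50 UMIs in each group, the median ratio was 0.994, and 2 genes reached a ratio of 2 (0.287%) and 2 a ratio of 0.5 or less (0.287%). Jun, an immediate early transcription factor gene, stood at 595 CPM in ECiKO replicate 1 and 1299 CPM in control (ratio 0.458, exact 95% interval 0.379 to 0.549). The control libraries had 1299 and 1292 CPM, but in control replicate 2, 1 of the 7 cells held 34 of the 35 Jun UMIs. Hspa1b, a heat shock gene, stood at 310 against 772 CPM (0.401, 0.309 to 0.516), but control replicate 2 had none and replicate 1 had 813 CPM. The genes above were mt-Atp8 (2.20, 1.57 to 3.10) and Vcam1 (2.03, 1.63 to 2.53), both outside the naming rule and seen first by value. Vcam1 is a gate gene, at 658 CPM against 333 and 148 CPM in control, and 5 cells held 74.8% of its ECiKO UMIs. Median ratios were 0.949 for 5 vein genes, 1.03 for 14 capillary genes, 1.05 for 17 barrier genes, 0.951 for 15 immediate early genes and 0.814 for 7 heat shock genes. These intervals cover counting error only.

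The last comparison asked whether a genotype difference was larger in venous cells than in the other endothelial cells, as an interaction over 8208 genes. Its ECiKO side rested on ECiKO replicate 1 alone, with the spread taken from the other libraries. The ECiKO values below therefore have no replicate check. For GlastiKO none was higher (0%) and 1 was lower (0.0122%), Igfbp3 (-3.67 ± 0.716, adjusted p = 0.00241), the gene carried by single control cells above, whose call was lost without control replicate 2 (-1.86) or GlastiKO replicate 1 (adjusted p = 1 for both). For ECiKO 1 was higher (0.0122%), the haemoglobin gene Hba-a1 (6.89 ± 1.16, adjusted p = 2.11e-05), and none was lower (0%). Among the other endothelial cells of control replicate 1, 1 cell held 13674 of 14015 erythroid UMIs, and the Hba-a1 call was lost without control replicate 1 (adjusted p = 0.899) or control replicate 2 (adjusted p = 1). DESeq2 called none in either. The Gja1 interaction was -0.09 ± 0.557 for GlastiKO and -1.01 ± 0.62 for ECiKO (adjusted p = 1 for both). Below the threshold for GlastiKO were the immediate early genes Fos (-1.89, adjusted p = 0.192), Ccn1 (-2.08, adjusted p = 0.238), Fosb (-1.57) and Egr1 (-1.50). On the higher side were Itga4 (2.26), Ckap5 (1.81), Sox4 (1.81), Nmi (1.68) and Notch4 (1.43). Of 18 immediate early genes tested, 17 lay below 0, with a median of -0.64 against -0.01 over all genes, and none passed. Without GlastiKO replicate 2, whose 10 venous cells were low in these genes, Fos stood at -1.07, Fosb at -0.82, Egr1 at -0.84 and Ccn1 at -2.04 (adjusted p = 1 for each). Without control replicate 2 the values were -1.06, -0.77, -1.39 and -0.85 (adjusted p = 1 for each). Other libraries left out brought calls: Fos (-2.85, adjusted p = 1.84e-05), Fosb (-3.22, adjusted p = 0.00113) and Ccn1 (adjusted p = 2.09e-12) without control replicate 1, Fosb (adjusted p = 0.0257) and Egr1 (adjusted p = 0.0356) without GlastiKO replicate 1, and Fos (-1.86, adjusted p = 0.0291) without ECiKO replicate 1. For ECiKO the genes nearest the threshold were Rexo1 (2.12), Mfge8 (1.65), Hexim1 (1.6), Zfp608 (1.52) and Myh10 (1.29) on the higher side, and Depp1 (-2.57), Arid4a (-1.93), Pear1 (-1.66), Ccn1 (-1.47) and Fosb (-1.33) on the lower, each with an adjusted p of 1.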

How the data were processed

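The deposited files hold raw UMI counts per gene and barcode. Per the labels' protocols and the file headers the authors aligned with Cell Ranger 5.0.0 to mm10, while the submitters' processing notes name Cell Ranger 2.1.1 and Seurat 4. Each library was given as its filtered matrix, and the deposited barcodes equal in number the cells the labels state. Cells were gated as the report describes, doublets were kept, and UMIs were summed by library and class (Python 3.11.15, numpy 2.4.6, scipy 1.17.1, scanpy 1.11.5). Sums of at least 3 cells were tested with edgeR 4.0.16 (R 4.3.3): filterByExpr, TMM factors, the quasi-likelihood test and Benjamini-Hochberg adjustment over all genes tested. Class comparisons had a library block and left out the 19 gate genes, and genotype comparisons had the group alone. ECiKO replicate 2, with 1 venous cell, entered no fit. DESeq2 1.42.0 was an alternative, beside other gates, filters, thinning to 2000 or 1000 UMIs and libraries left out.

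Genes were named by rule: Gja1, then up to 15 per direction with an adjusted p under 0.05, at least 50 CPM, the same direction in every library and no marker of another type, up to 10 in genotype comparisons, filled to 5 by smallest p, and up to 5 per gene list by level. The gate, the 15 gene lists and the 16 marker lists were chosen with earlier results of these data known. Counts of 0 were given a floor of 3 UMIs. Some genes that met the rule are not reported here. Positions are those of GENCODE M21. The fits were tested on simulated data. Against the other endothelial cells 88 of 100 genes changed 2-fold and 98 of 100 changed 4-fold were called, with 8 false calls among 5157 genes. Against arterial cells 54 and 73 of 100 were called, with 7 false calls among 2944.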

Additional observations from a re-analysis of the deposited data

Results flagged for a closer look

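Igfbp3 differed between cell classes in its GlastiKO effect. The interaction was -3.67 ± 0.716 (log2, edgeR adjusted p = 0.00241), since venous cells had 155 and 2177 CPM in control against 16.6 and 0 CPM in GlastiKO, while the other endothelial cells had 231 and 33.1 CPM against 81.6 and 56.3 CPM. Single cells held 80 of 81 UMIs in control replicate 1 and all 59 in control replicate 2.

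Hba-a1 differed in its ECiKO effect, with an interaction of 6.89 ± 1.16 (log2, edgeR adjusted p = 2.11e-05). ECiKO replicate 1 was the only ECiKO library in this fit, so the interaction has no replicate check. In venous cells Hba-a1 measured 24.9 and 0 CPM in control and 25.5 CPM in ECiKO replicate 1. In the other endothelial cells Hba-a1 measured 1604 and 11 CPM in control and 13.8 CPM in ECiKO replicate 1, and GlastiKO replicate 2 had 6482 CPM. Single cells held 13674 of 14015 erythroid UMIs in the other endothelial cells of control replicate 1 and 5979 of 6028 in those of GlastiKO replicate 2. The call was lost without control replicate 1 (adjusted p = 0.899) or control replicate 2 (adjusted p = 1). Hba-a2 is a near-identical gene, so the assignment of reads between the pair is uncertain. In the other endothelial cells of control replicate 1, Hba-a1 was counted at 3357 UMIs and Hba-a2 at 2633. The ECiKO interaction was 1.20 for Hba-a2 and 3.90 for Hbb-bs.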

How the results depend on the processing

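Calls of venous against other endothelial cells, 76 higher and 59 lower, came to 27 and 32 with DESeq2, 115 and 104 with at least 10 cells per sum, 38 and 34 thinned to 2000 UMIs, and 152 and 122 with the libraries numbered 1 only. With no filter on low counts 99 were lower, of 15872 genes tested. Genes tested numbered 5039 in the main fit and with DESeq2, 6414 with at least 10 cells, 1364 thinned and 8104 with the libraries numbered 1 only. Against arterial cells, 120 and 113 came to 68 and 58 with DESeq2, 193 and 206 with at least 10 cells or the libraries numbered 1 only, and 183 and 208 without cells that carried markers of other types. Genes tested there numbered 2904 in the main fit and with DESeq2, 4520 with at least 10 cells or the libraries numbered 1 only, and 4542 without marker-carrying cells. For GlastiKO, 0 higher came to 1 with a gate of 6 UMIs or at most 10% mitochondrial UMIs and 2 with at least 10 cells, and 4 lower to 2 with a gate of Vwf, Slc38a5 and Il1r1 or at least 10 cells, and to 0 with DESeq2 or without the Plvap, Esm1 and Igfbp3 cells. An edgeR fit for ECiKO with a single library, its spread assumed equal to the others', called 0 higher and 4 lower, and 0 lower with DESeq2, the 3-gene gate, at least 10 cells or without the Plvap, Esm1 and Igfbp3 cells. The GlastiKO interaction, 1 gene, came to 0 with DESeq2, the 3-gene gate, at least 10 cells or thinning, 4 without doublets, 3 without marker-carrying cells and 2 without the Plvap, Esm1 and Igfbp3 cells. The ECiKO interaction, 1 gene, came to 0 with DESeq2, a gate of 6 UMIs, at least 10 cells or thinning. Genes with an ECiKO ratio of 2 or more, 2, came to 1 with the 3-gene gate or all 6 libraries.

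The replicate numbers were not taken as pairs. Libraries of the same number were alike in their share of endothelial cells, but no label ties them, and the correlation of the deviations of control and GlastiKO libraries over 6362 genes was 0.073 (2 pairs). With the replicate block, calls against other endothelial cells were 40 and 37, GlastiKO had 2 higher and 3 lower, the single-library ECiKO fit 1 lower and the GlastiKO interaction 2. The venous share, 15.5%, was 9.18% with 6 gate UMIs, 29.8% with 2, 13.4% with the 3-gene gate, 9.78% thinned to 2000 UMIs and 2.85% thinned to 1000. Its GlastiKO difference was -0.95 percentage points thinned to 1000 UMIs, and its ECiKO difference -2.97 with 6 gate UMIs and -1.12 thinned to 1000.

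Leaving out each library in turn gave 23 to 115 higher and 19 to 104 lower against other endothelial cells, 41 to 137 and 38 to 146 against arterial cells, and 0 to 7 and 2 to 11 for GlastiKO. It gave 0 to 5 and 0 to 9 for the single-library ECiKO fit, 0 to 9 and 0 to 6 genes for the GlastiKO and ECiKO interactions, 1 to 3 ECiKO ratios of 2 or more and 3 to 8 of 0.5 or less. Shares were 14.4 to 16.3%, with differences of 0.292 to 2.66 for GlastiKO and -11.1 to -3.24 for ECiKO.

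Directions turned as follows. With each library left out, Gja1 lay from -0.21 to 0.16 (without ECiKO replicate 1) against other endothelial cells, from -0.35 to 0.11 (without ECiKO replicate 1) against arterial cells, and for GlastiKO from -0.32 (without control replicate 1) to 0.88, with -0.14 at a gate of 6 UMIs. Its GlastiKO interaction lay from -1.51 to 0.25 (without control replicate 2), and turned to 0.25 with at least 10 cells, 0.21 with the 3-gene gate, 0.14 without doublets or marker-carrying cells, 0.19 without the Plvap, Esm1 and Igfbp3 cells and 1.26 thinned, and its ECiKO interaction to 0.87 thinned. Hspa1a against other endothelial cells turned to -0.019 thinned. Plpp3 turned to 1.76 for GlastiKO without the Plvap, Esm1 and Igfbp3 cells. Among interactions, Fos turned to 0.19 with the 3-gene gate, Igfbp3 to 7.14 thinned, Depp1 to 5.11 without control replicate 1 (from -2.78) and 0.019 thinned, and Arid4a to 0.030 thinned. The cause was not tested. ECiKO ratios were not run with DESeq2, other factors, filters or the block, and the interactions with the libraries numbered 1 only had no residual degrees of freedom. The small number of endothelial cells (43 in control, 62 in GlastiKO and 21 in ECiKO) limits the libraries numbered 2, with 18 venous cells between them.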
